A study of Mus musculus with 5 samples.

Results

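The genes described here encode 9 transporters of the blood-brain barrier: *Slc2a1*, *Slc7a5*, *Slc3a2*, *Mfsd2a*, *Slco1c1*, *Slco1a4*, *Slc22a8*, *Abcb1a* and *Abcg2*. They were taken by symbol from the 23361 genes listed for each hippocampal RNA-seq library, and all 9 were found. The libraries came from mice aged 3 months, 2 of them control animals with floxed *Hdac1* alleles (genotype *Hdac1* f/f, with no Cre listed, titled WT) and 3 of them *Hdac1* conditional knockout (cKO) animals with the same floxed alleles and the *Nestin-Cre* transgene. *Nestin-Cre* is active in the neural lineage, and the study describes *Hdac1* deletion in neurons and astrocytes. The cells that form the vessel wall arise from other lineages, so the cKO label says nothing of *Hdac1* in the endothelium. Values are FPKM, the number of sequenced fragments scaled to transcript length and to library size, so that levels can be compared between genes.

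Brain endothelial cells are sealed to each other by tight junctions, so nutrients, hormones and drugs cross them mainly through carriers in their membranes. Solute carriers of the SLC and SLCO families bring in glucose, amino acids, lipids and thyroid hormone, and ATP-driven pumps of the ABC family return lipophilic compounds to the blood. Several of these carriers are also made by other cells of the brain, among them astrocytes and the epithelium of the choroid plexus. In bulk tissue, fewer cells of a type and less RNA per cell cannot be told apart.

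The libraries were alike in overall content, with totals of 565363 to 636705 FPKM and 12680 to 12745 genes at 1 FPKM or more. Depth was estimated at 5070000 to 6690000 fragments per library, lowest in cKO 2. *Hdac1* itself, the deleted gene, stood at 8.95 FPKM in control 1 and 13.1 FPKM in control 2, against 1.95, 3.12 and 3.37 FPKM in cKO 1, 2 and 3, below both controls in each. Low FPKM values fall on steps shared by control 1 and cKO 1 (set 1) and, separately, by control 2, cKO 2 and cKO 3 (set 2), so the fold changes of the transporters are also given within these sets. All 15 endothelial markers, among them *Pecam1*, *Cdh5* and *Flt1*, had a mean of at least 1 FPKM, so vessel RNA was present in the tissue.

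None of the 9 transporters differed between genotypes by the threshold of the study, a fold change of 1.5 (here in FPKM + 1) with P under 0.05 (limma), which 0.659% of the 12740 tested genes passed. At an unadjusted p of 0.05 alone 1 of the 9 passed, *Slc2a1*, where 4.36% of all tested genes did and 1.99% did as lower in cKO, and 0 passed an adjusted p of 0.05, where 0.00785% did. *Slc2a1* and *Slc3a2* were lower in every cKO library than in both controls, and *Mfsd2a* was higher in every cKO library. These 3 genes are those whose groups did not overlap, against 20.4% of all tested genes, made up of 9.41% of them lower and 11% of them higher in cKO. The median log2 fold change over the 9 genes was 0.028, beside 0.015 over all tested genes, with 5 genes higher and 4 lower in cKO. This median ranged from −0.12 without cKO 3 to 0.054 without control 2, and its sign also turned without control 1 (−0.097).

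The stretches upstream of *Slc2a1*, *Mfsd2a* and *Slco1c1* are shown because these are the 3 transporters with the smallest p-values, the first lower and the others higher in cKO on average. Each is the window of 250 bases before the RefSeq start (sequence table of build GRCm38.p6), located by exact match in the mm9 assembly and ended, where it reached that far, before the first annotated exon. Capitals mark GC boxes (GGGCGG or CCGCCC), the motif class that binds SP and KLF factors, and the core of TCF/LEF sites (CAAAG or CTTTG), which take part in Wnt signalling at the barrier. The *Slc2a1* stretch is chr4:118781100-118781315 on the plus strand, that of *Mfsd2a* is chr4:122638432-122638681 on the minus strand and that of *Slco1c1* is chr6:141472625-141472874 on the plus strand, all in mm9.
Slc2a1: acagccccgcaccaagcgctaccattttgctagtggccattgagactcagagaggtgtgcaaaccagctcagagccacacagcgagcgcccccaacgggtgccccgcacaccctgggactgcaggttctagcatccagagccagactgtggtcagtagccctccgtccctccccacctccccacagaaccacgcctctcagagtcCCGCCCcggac
Mfsd2a: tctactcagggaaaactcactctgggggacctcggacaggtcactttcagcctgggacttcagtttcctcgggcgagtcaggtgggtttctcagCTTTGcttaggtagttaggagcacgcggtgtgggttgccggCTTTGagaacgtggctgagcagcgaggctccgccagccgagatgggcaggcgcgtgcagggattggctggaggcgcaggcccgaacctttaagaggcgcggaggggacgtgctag
Slco1c1: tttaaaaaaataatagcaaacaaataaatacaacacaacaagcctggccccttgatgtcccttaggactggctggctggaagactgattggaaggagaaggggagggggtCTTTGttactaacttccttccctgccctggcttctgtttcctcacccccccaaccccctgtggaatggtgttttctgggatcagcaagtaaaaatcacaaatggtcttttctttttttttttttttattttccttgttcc
*Slc2a1* has 1 GC box in the printed stretch and another past its end, inside the window, and no TCF/LEF core. *Mfsd2a* has 2 TCF/LEF cores and no GC box, and *Slco1c1* has 1 TCF/LEF core and no GC box. G and C made up 63.9%, 61.6% and 42.8% of the printed bases of *Slc2a1*, *Mfsd2a* and *Slco1c1*. Among all 32851 windows of the same length, 32.7% hold a GC box and 48.6% a TCF/LEF core. Of the 8 transporters matched in the sequence table used here (*Slc7a5* is the other), 3 have a GC box and 7 a TCF/LEF core before at least 1 start, or 4 and 7 of their 10 windows. These matches are letters only and show no binding.

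The levels spanned a wide range. *Slc3a2* was the highest at 30.4 ± 1.37 FPKM (SD over the 5 libraries), followed by *Slc2a1* at 22.4 ± 2.78 FPKM, *Slco1c1* at 19.7 ± 3.24 FPKM and *Slco1a4* at 13.6 ± 2.40 FPKM. Below them lay *Mfsd2a* at 10.9 ± 1.41 FPKM, *Slc7a5* at 9.20 ± 1.68 FPKM, *Abcg2* at 9.01 ± 1.36 FPKM, *Abcb1a* at 5.65 ± 1.14 FPKM and *Slc22a8* at 1.78 ± 0.571 FPKM. *Slc3a2* stood above *Slc2a1*, and *Abcb1a* above *Slc22a8*, without overlap of their ranges. The ranges of all other neighbours in this order overlapped, although *Slco1c1* was above *Slco1a4*, *Mfsd2a* above *Slc7a5* and *Abcg2* above *Abcb1a* in 5 of 5 libraries. *Slc2a1* was above *Slco1c1* in 3 libraries only and *Slc7a5* above *Abcg2* in 2, so those neighbours were not separated by their spread. *Slc2a1* was the higher of its pair in both controls and in cKO 1, and *Slco1c1* in cKO 2 and 3. *Abcg2* was the higher of its pair in both controls and in cKO 2.

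**Figure D1:**
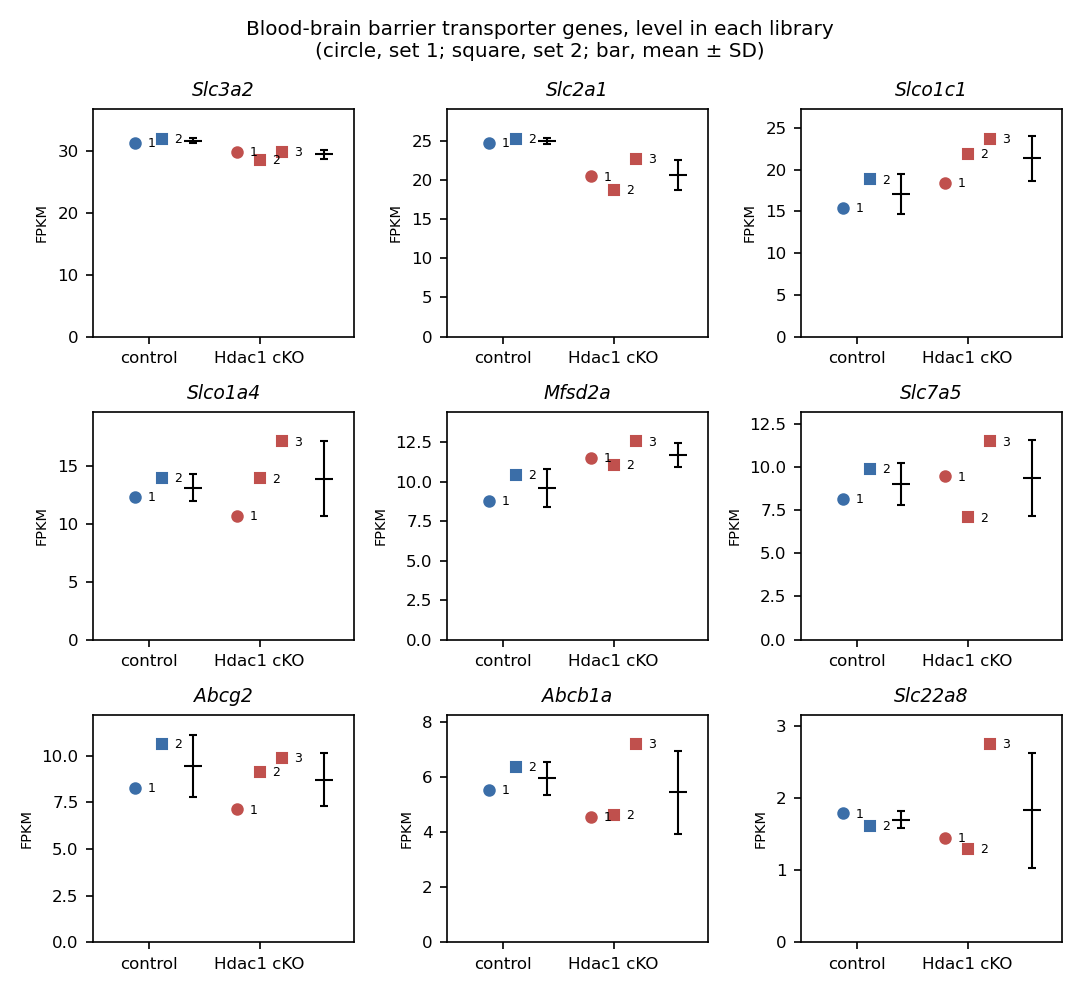
FPKM of each transporter gene in the 2 control (blue) and 3 *Hdac1* cKO (red) libraries, numbered by replicate, with circles for set 1 and squares for set 2 and a black bar for the group mean ± SD. *Slc2a1* and *Slc3a2* lie below both controls in every cKO library and *Mfsd2a* above them, and cKO 3 is the highest point for 6 of the 9 genes.

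*Slc2a1* (ENSMUSG00000028645.4, chromosome 4, 118781316 to 118809935, plus strand) encodes GLUT1, the carrier that supplies the brain with glucose. Control libraries 1 and 2 gave 24.8 and 25.3 FPKM, and cKO libraries 1, 2 and 3 gave 20.5, 18.8 and 22.7 FPKM. Every cKO library was below both controls, and the highest cKO value, in replicate 3, still lay under the lower control. The group means were 25.0 ± 0.387 FPKM (SD, n = 2) and 20.7 ± 1.97 FPKM (SD, n = 3), a ratio of 0.825. On the log2 scale the difference was −0.27 (SE 0.11, 95% interval −0.53 to −0.014), with an adjusted p = 0.955 (limma); its unadjusted p was under 0.05. The difference was −0.26 in set 1 and −0.28 in set 2. Leaving out control 1, control 2, cKO 1 or cKO 2 took the unadjusted limma p above 0.05, with a log2 fold change of −0.28 to −0.21. Of its 2853 exonic nt, 105 overlap *Gm12868* on the opposite strand.

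*Slc7a5* and *Slc3a2* encode the light and heavy chains of LAT1, the exchanger of large neutral amino acids such as leucine and tyrosine. *Slc3a2* (ENSMUSG00000010095.7, chromosome 19, 8781372 to 8797859, minus strand), the heavy chain CD98 that also serves other light chains, measured 31.4 and 32.1 FPKM in control 1 and 2 and 29.9, 28.6 and 29.9 FPKM in cKO 1, 2 and 3. The cKO values all lay under the controls, by a small margin. The means were 31.7 ± 0.463 FPKM (SD, n = 2) and 29.5 ± 0.768 FPKM (SD, n = 3), a log2 fold change of −0.10 (SE 0.09, 95% interval −0.32 to 0.11, limma adjusted p = 0.956). It was −0.068 in set 1 and −0.13 in set 2.

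*Slc7a5* (ENSMUSG00000040010.8, chromosome 8, 124405052 to 124431594, minus strand) measured 8.14 and 9.87 FPKM in control 1 and 2 and 9.44, 7.06 and 11.5 FPKM in cKO 1, 2 and 3. The cKO libraries lay on both sides of the controls, lowest in replicate 2 and highest in replicate 3. The log2 fold change was 0.028 (SE 0.19, 95% interval −0.40 to 0.46, limma adjusted p = 0.989), with 0.19 in set 1 and −0.12 in set 2. The heavy chain exceeded the light chain 3.86- and 3.25-fold in the controls and 3.17-, 4.05- and 2.61-fold in the cKO libraries, in FPKM. The log2 ratio of light to heavy chain was −1.82 ± 0.18 (SD, n = 2) in the controls and −1.69 ± 0.32 (SD, n = 3) in cKO, a difference of 0.14 (exact permutation p = 0.6, two-sided, where 0.1 is the smallest p of this design). That difference was 0.28 in set 1 and −0.00094 in set 2, and it was −0.017 without cKO 3.

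*Mfsd2a* (ENSMUSG00000028655.5, chromosome 4, 122624093 to 122638431, minus strand) encodes the symporter that carries docosahexaenoic acid into the brain as lysophosphatidylcholine and holds vesicle traffic across the endothelium low. Its level was 8.77 FPKM in control 1, 10.4 FPKM in control 2, and 11.5, 11.1 and 12.6 FPKM in cKO 1, 2 and 3. All 3 cKO libraries were above both controls, and the gap between cKO 2 and control 2 was narrow. The means were 9.60 ± 1.18 FPKM (SD, n = 2) and 11.7 ± 0.766 FPKM (SD, n = 3), a ratio of 1.22. In the limma fit the log2 fold change was 0.27 (SE 0.12, 95% interval −0.014 to 0.55, adjusted p = 0.955). It was 0.36 in set 1 and 0.16 in set 2. Leaving out control 1 gave 0.15 (limma adjusted p = 1) and leaving out control 2 gave 0.38 (limma adjusted p = 0.859), so the size rests on which control is kept.

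*Slco1c1* (ENSMUSG00000030235.9, chromosome 6, 141472907 to 141518241, plus strand) encodes OATP1C1, the thyroxine carrier of brain endothelium, which astrocytes also make. Its level was 15.4 FPKM in control 1, 18.8 FPKM in control 2, and 18.4, 21.9 and 23.7 FPKM in cKO 1, 2 and 3. The overlap came from cKO 1, which lay just under control 2, while the other cKO libraries were above both controls. The means were 17.1 ± 2.43 FPKM (SD, n = 2) and 21.4 ± 2.71 FPKM (SD, n = 3), a ratio of 1.25. In the limma fit the log2 fold change was 0.30 (SE 0.14, 95% interval −0.020 to 0.62, adjusted p = 0.955). The differences within the sets were 0.24 and 0.26, and in each set every cKO library was above its control. Leaving out each library in turn gave 0.16 without control 1 (limma adjusted p = 1), 0.44 without control 2 (0.859), 0.40 without cKO 1 (0.632), 0.28 without cKO 2 (1) and 0.23 without cKO 3 (0.999). Astrocyte markers stood higher in the same libraries: 10 of 15 were higher in cKO with a median log2 fold change of 0.13 (0.019 in set 1 and 0.13 in set 2), and their summed level was 4273 to 4341 FPKM in control and 4539 to 4651 FPKM in cKO, with none at 0. *Aqp4*, the water channel of astrocyte endfeet at the vessel wall, measured 54.4 FPKM in each control library, against 89.4, 98.4 and 94.6 FPKM. Its log2 difference of 0.78 (limma adjusted p = 0.175) was the extreme of that list. *Aqp4* was the 1 gene of the list past the threshold, beside 0.659% of all tested genes. *Gfap*, the intermediate filament of astrocytes, followed at 0.43 (limma adjusted p = 0.955). Of the 15 markers, 8 were higher in every cKO library than in both controls, beside 11% of all tested genes. In turn 0 were lower in all, beside 9.41% of all tested genes, whereas *Aldh1l1*, *Aldoc*, *Glul*, *Slc7a10* and *Atp1b2* lay between −0.16 and −0.022. The part of astrocyte RNA in the *Slco1c1* difference was not tested.

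*Slco1a4* (ENSMUSG00000030237.7, chromosome 6, 141753961 to 141804720, minus strand) encodes an organic anion carrier of the same family, which takes bile acids and steroid conjugates. Control libraries held 12.3 and 13.9 FPKM of it, and cKO libraries 1, 2 and 3 held 10.7, 13.9 and 17.1 FPKM. The cKO libraries spanned the controls, with replicate 1 below and replicate 3 above both. Its log2 fold change was 0.058 (SE 0.18, 95% interval −0.36 to 0.47, limma adjusted p = 0.989), with −0.19 in set 1 and 0.14 in set 2. Its neighbours *Slco1a5* and *Slco1a6* stayed at or below 0.109 FPKM in every library, and its closest transcript match, *Gm5724*, was 85.1% identical over 2377 nt.

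*Slc22a8* (ENSMUSG00000063796.2, chromosome 19, 8665744 to 8686324, plus strand) encodes OAT3, which removes organic anions and metabolites of neurotransmitters from the brain and is also made in the choroid plexus. Control libraries held 1.79 and 1.62 FPKM of it, and cKO libraries 1, 2 and 3 held 1.45, 1.29 and 2.75 FPKM. Replicates 1 and 2 of cKO were below both controls and replicate 3 was above them. Its log2 fold change was 0.032 (SE 0.22, 95% interval −0.49 to 0.55, limma adjusted p = 0.989), with −0.19 in set 1 and 0.16 in set 2. Without cKO 3 it was −0.19 (limma adjusted p = 0.999). By the estimated depth, about 23 to 57 fragments per library lay behind these values. Counting alone would then give an error of about 20.9% in the thinnest library. The sum of the choroid plexus markers varied far more than the transporter, from 7.05 FPKM in control 2 to 606 FPKM in cKO 2. It was 167 FPKM in control 1 and 75.5 and 25.5 FPKM in cKO 1 and 3. *Ttr* alone gave 157 and 1.33 FPKM in control 1 and 2 and 67.9, 589 and 20.7 FPKM in cKO 1, 2 and 3. *Kl*, of the same list, ranged only from 3.77 to 5.71 FPKM, and *Kcnj13* and *Folr1* were listed at 0 in cKO 3. *Slc22a8* was at its lowest in cKO 2, where this sum was highest.

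The efflux pumps were compared next. *Abcb1a* (ENSMUSG00000040584.8, chromosome 5, 8660077 to 8748575, plus strand) encodes P-glycoprotein, the main drug pump of the mouse barrier. Values were 5.53 and 6.37 FPKM in control 1 and 2, and 4.53, 4.62 and 7.18 FPKM in cKO 1, 2 and 3. Replicates 1 and 2 of cKO lay below both controls and replicate 3 above them. Its log2 fold change was −0.13 (SE 0.19, 95% interval −0.57 to 0.30, limma adjusted p = 0.974), with −0.24 in set 1 and −0.12 in set 2. Without cKO 3 it was −0.32 (limma adjusted p = 0.999), while without cKO 1, cKO 2 or control 2 it was −0.034, −0.045 and −0.044. Its paralog *Abcb1b*, 87.7% identical over 4000 nt, was at 0.748 to 1.74 FPKM and was lowest in cKO 3, where *Abcb1a* was highest.

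*Abcg2* (ENSMUSG00000029802.7, chromosome 6, 58534517 to 58642863, plus strand) encodes the breast cancer resistance protein, a pump of sulfated and xenobiotic compounds. Values were 8.29 and 10.6 FPKM in control 1 and 2, and 7.13, 9.14 and 9.90 FPKM in cKO 1, 2 and 3. Only cKO 1 lay outside the control range, below it. The log2 fold change was −0.11 (SE 0.16, 95% interval −0.48 to 0.27, limma adjusted p = 0.975), with −0.19 and −0.14 in the sets. *Abcg2* exceeded *Abcb1a* by 1.60-fold in FPKM over all libraries.

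**Figure D2:**
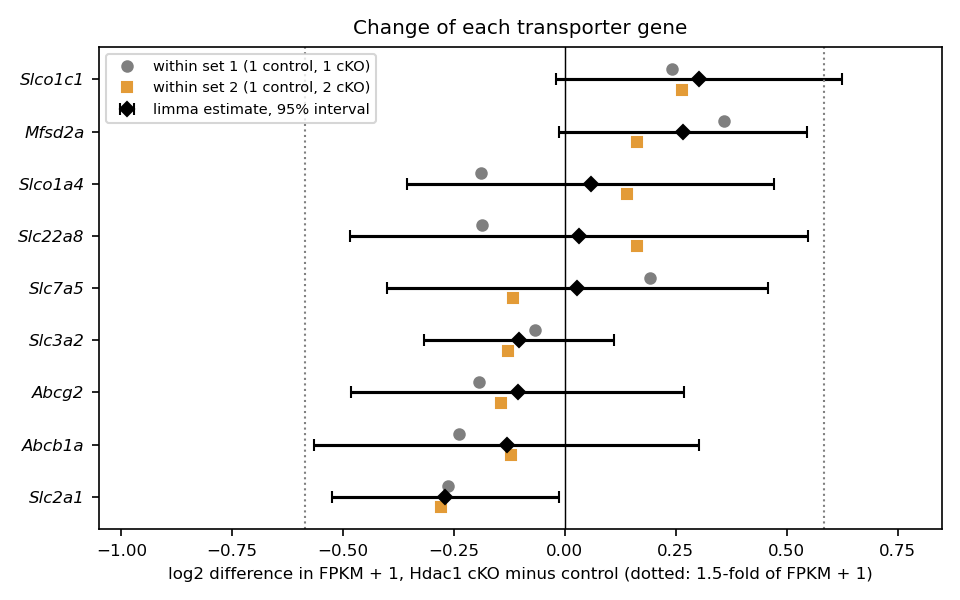
Log2 difference in FPKM + 1 between *Hdac1* cKO and control for each transporter gene, with the limma estimate and its 95% interval (black diamonds), the difference within set 1 (grey circles) and within set 2 (orange squares), and dotted lines at a 1.5-fold change of FPKM + 1. Only the interval of *Slc2a1* leaves out 0, and *Slco1a4*, *Slc22a8* and *Slc7a5* have opposite signs in the sets.

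With 2 controls and 3 cKO libraries, the limma SEs ran from 0.09 for *Slc3a2* to 0.22 for *Slc22a8* on the log2 scale. These SEs are on the log2(FPKM + 1) scale, where a given step stands for a larger fold of FPKM in a low gene such as *Slc22a8* than in a high one. The sign was the same in both sets for 6 genes, with *Mfsd2a* and *Slco1c1* higher and *Slc2a1*, *Slc3a2*, *Abcb1a* and *Abcg2* lower in cKO. For the other 3 the sets gave opposite signs. With the set as a term of the limma fit 3 of the 9 genes had an unadjusted p under 0.05, *Slc2a1* (−0.27, adjusted p = 0.497), *Mfsd2a* (0.25, adjusted p = 0.533) and *Slco1c1* (0.25, adjusted p = 0.471), where 9.34% of all tested genes did.

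Several transporters varied from library to library together with the vessel markers. The endothelial markers had a mean log2(FPKM + 1) of 2.56 and 2.83 in control 1 and 2 and of 2.48, 2.51 and 2.94 in cKO 1, 2 and 3, highest in cKO 3 and control 2. Their summed level was 115 and 134 FPKM in these controls, against 107, 108 and 139 FPKM in cKO. Microglia markers had the same pair of highest libraries, with sums of 303 and 362 FPKM in control 1 and 2 and 308, 315 and 366 FPKM in cKO 1, 2 and 3, so this profile was not particular to vessels. In the same way the 9 transporters summed to 116 and 129 FPKM in control tissue and to 114, 116 and 137 FPKM in cKO. Highest values fell in cKO 3 for 6 transporters and in control 2 for the other 3, and no gene peaked in control 1, cKO 1 or cKO 2. Of the endothelial markers 11 of 15 were lower in cKO, with a median log2 fold change of −0.09. Without control 2 that median was 0.083. None of these markers passed the threshold or an unadjusted p of 0.05, beside 0.659% and 4.36% of all tested genes. Only *Ly6c1* had groups without overlap, as lower in cKO. Of all tested genes 20.4% had none, 9.41% as lower in cKO.

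Each transporter was therefore also set against the mean of the endothelial markers in its own library, as a difference on the log2(FPKM + 1) scale. For *Mfsd2a* this difference was 0.73 for control 1, 0.68 for control 2 and 1.16, 1.08 and 0.82 for cKO 1, 2 and 3. For *Slco1c1* it was 1.48 in both controls and 1.79, 2.01 and 1.69 in cKO. Both genes were thus above the controls in all 3 cKO libraries, by 0.32 and 0.35 on average. They were the 2 of 9 without overlap on this scale, where 5.6% of all tested genes had none and 4.24% had none as higher in cKO. Before the subtraction 20.4% of all tested genes had none. Subtracting the endothelial mean adds its spread to genes that do not vary with it. The 5.6% is therefore not a like background for transporters that do vary with it. For *Slc2a1* control values of 2.13 and 1.88 faced cKO values of 1.94, 1.80 and 1.63, where cKO 1 lay above control 2 and the groups overlapped, with a mean difference of −0.22. The remaining 6 genes differed by between −0.079 for *Abcb1a* and 0.11 for *Slco1a4*. These differences are descriptions without a test.

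**Figure D3:**
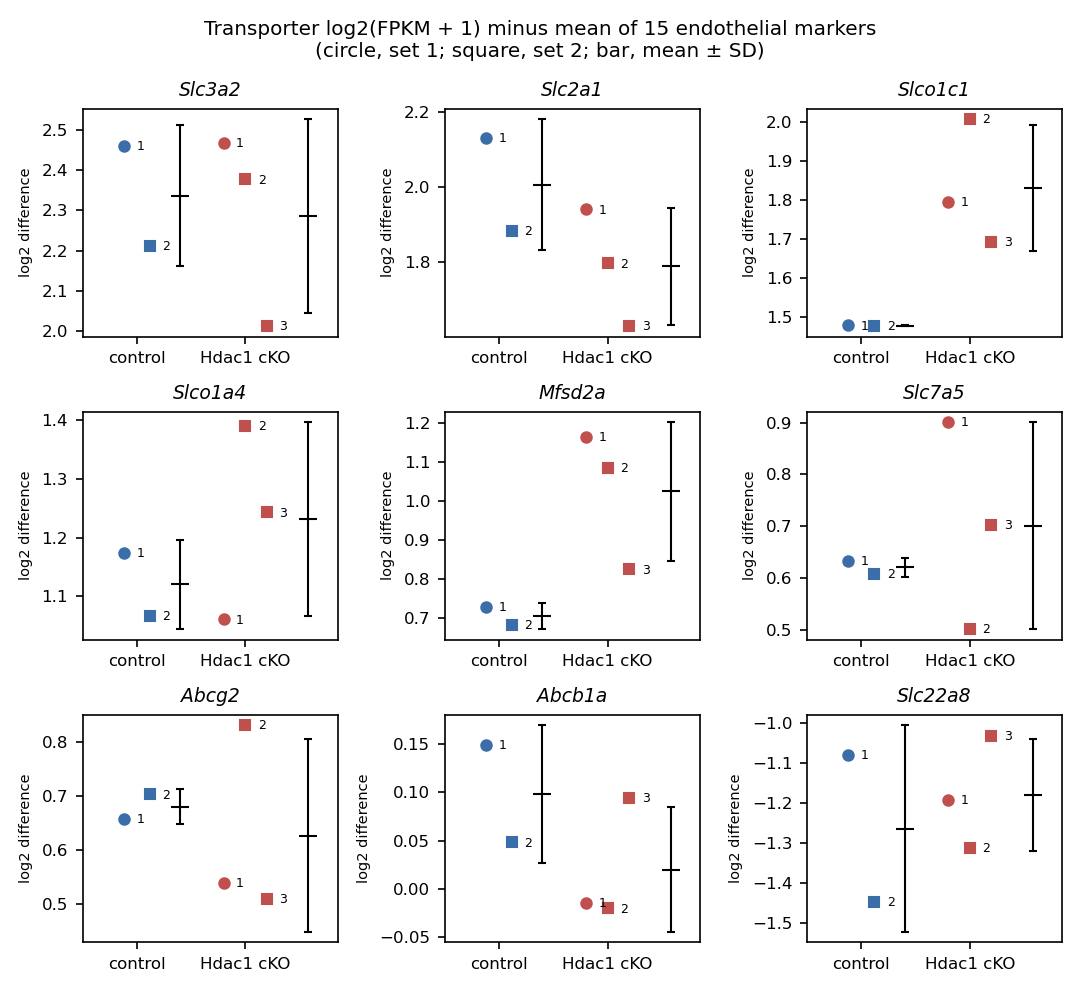
Log2(FPKM + 1) of each transporter minus the mean of the 15 endothelial markers in the same library, in control (blue) and *Hdac1* cKO (red), with circles for set 1, squares for set 2 and a bar for the mean ± SD; the vertical axes differ and do not start at 0. *Mfsd2a* and *Slco1c1* lie above both controls in all 3 cKO libraries, and the other 7 genes overlap between groups.

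Further transporters and receptors of the brain endothelium, with near paralogs of the 9 transporters, were followed as a list of 21 genes, of which 17 were tested. None passed the threshold or an unadjusted limma p of 0.05, beside 0.659% and 4.36% of all tested genes. In this list 7 were higher and 10 lower in cKO, with a median log2 fold change of −0.025. The smallest p was that of *Slc7a8*, another amino acid light chain that pairs with the *Slc3a2* product, with control values of 5.43 and 6.79 FPKM and cKO values of 4.27, 4.05 and 5.50 FPKM (log2 fold change −0.35, limma adjusted p = 0.955). *Tfrc*, the transferrin receptor, followed with 38.2 and 46.1 FPKM against 43.7, 49.9 and 52.0 FPKM (0.20, limma adjusted p = 0.955). *Abcc4*, an organic anion pump, had a log2 fold change of 0.27, with 0.25 in set 1 and 0.34 in set 2. *Slc38a3*, a glutamine carrier, had 0.19, with opposite signs in the sets (−0.10 in set 1 and 0.36 in set 2). *Slc16a1*, the monocarboxylate carrier MCT1, was the single tested gene of this list whose groups did not overlap (15.5 and 14.9 against 17.2, 16.3 and 16.9 FPKM), fewer than the 20.4% of all tested genes would give, and is named for that reason, outside the naming rule. *Slc19a3*, *Slco1a5*, *Slco1a6* and *Slc22a6* were below a mean of 1 FPKM and were not tested.

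Genes of the junctions and of vesicle transport gave a median of 0.088 over 10 tested of 12, with 6 higher and 4 lower. None had an unadjusted limma p under 0.05, beside 4.36% of all tested genes. *Jam2*, a junctional adhesion molecule, had 11.4 and 12.2 FPKM in control and 13.0, 15.5 and 14.5 FPKM in cKO tissue (0.26, limma adjusted p = 0.955). *Ocln*, encoding occludin, had 6.39 and 6.86 FPKM against 6.88, 7.87 and 8.25 FPKM (0.18, limma adjusted p = 0.955). In both genes every cKO library was above the controls, for *Ocln* by a margin that cKO 1 barely cleared. These were the 2 of 10 tested genes without overlap, beside 20.4% of all tested genes, with 11% as higher in cKO. *Lsr*, a receptor at tricellular junctions, had a log2 fold change of −0.21.

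Wnt signalling from neural cells induces and keeps the barrier, and 13 of 16 genes of this pathway were tested. None passed the threshold, beside 0.659% of all tested genes, and 1 had an unadjusted p under 0.05, beside 4.36%. The groups of 7 did not overlap, beside 20.4% of all tested genes. Of these 7, 5 were higher in cKO, beside 11% of all tested genes, and 2 were lower, beside 9.41%. The gene under 0.05 was *Apcdd1*, a Wnt inhibitor made by barrier endothelium, with 7.05 and 7.71 FPKM in control and 9.25, 10.1 and 9.93 FPKM in cKO tissue (log2 fold change 0.36, SE 0.11, limma adjusted p = 0.955). It was 0.35 in set 1 and 0.34 in set 2. Which cells of the tissue gave the *Apcdd1* RNA was not tested. *Wnt7b*, a ligand made by neurons and glia, had 18.0 and 17.2 FPKM against 16.3, 13.7 and 16.9 FPKM (−0.17, adjusted p = 0.955), and *Lrp5*, a coreceptor, had 2.66 and 2.40 FPKM against 1.94, 1.75 and 2.23 FPKM (−0.25, adjusted p = 0.955). *Foxq1*, a forkhead factor of brain endothelium, had a log2 fold change of −0.35, with overlapping groups. *Foxf2*, of the same list, had a mean of 0.947 FPKM and was not tested. Its values were 1.55 and 1.28 FPKM in control and 0.730, 0.495 and 0.675 FPKM in cKO tissue. The median of the list was 0.017, with 7 genes higher and 6 lower.

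**Figure D4:**
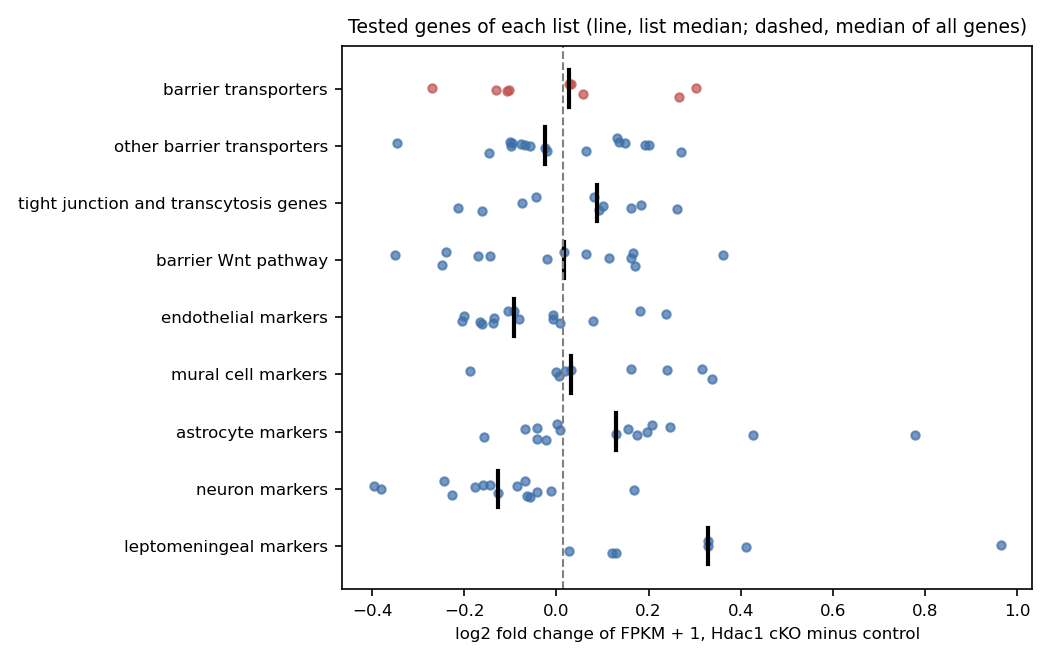
Log2 fold change of FPKM + 1, *Hdac1* cKO minus control, of each tested gene of the barrier lists and of marker lists of neighbouring cell types, with a black line at the median of each list and a dashed line at the median of all tested genes (0.015). The transporters (red) lie on both sides of 0, from −0.27 for *Slc2a1* to 0.30 for *Slco1c1*.

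Markers of the other cells of the dissected tissue were followed in the same fit. Mural cell genes had a median log2 fold change of 0.032 over 9 tested genes, and microglia markers had −0.014. Neuron markers had −0.13, with 14 of 15 lower. Oligodendrocyte markers had 0.12, with −0.0039 in set 1 and 0.25 in set 2. Leptomeningeal markers had a median of 0.33 with 7 of 7 tested genes higher. They were led by *Igf2* with 7.53 and 4.41 FPKM in control and 12.8, 9.40 and 15.2 FPKM in cKO tissue. *Igf2* was the 1 gene of its list past the threshold, beside 0.659% of all tested genes. The summed level of the leptomeningeal markers was 50.5 and 57.2 FPKM in control and 60.3 to 70.5 FPKM in cKO. The part of these cells in the transporter levels was not tested.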

How the data were processed

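Per the labels and the methods of the study, total RNA of hippocampus was made into TruSeq libraries, and the authors aligned reads with Tophat2 and computed the deposited FPKM with Cufflinks 2.0.0 on mm9. Whether counting used strand is not given in the sources used here. FPKM are not counts, so no count test was run. Groups and replicate numbers came from the sample titles. The 12740 of 23361 genes whose mean reached 1 FPKM were fitted with limma 3.58.1 in R 4.3.3 on log2(FPKM + 1), which understates changes of low genes, with genotype as the only term, a variance trend, two-sided p-values and Benjamini-Hochberg adjustment over all tested genes. The code was tested on simulated data. That replicates are separate animals is stated by the study, not by the labels.

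Sets of libraries were read from ratios of genes with a mean under 0.3 FPKM: pairs with over 10% of ratios in a window of 0.05 log2 units share a set. Fragments per library were estimated from the most common FPKM times length among genes with 1 annotated transcript of at least 1000 nt. In control 1 that value was shared by 29 of 665 low genes, so the estimate is rough. Coordinates and overlaps came from GENCODE vM1 (mm9), and transcript matches of at least 200 nt from BLAST 2.17.0, with none at 95% identity or more for these genes. The transporters, gene lists and rules were chosen with earlier results of these data known. Named beyond the 9 transporters were, in each list, genes past the threshold and at most the 4 with the smallest p, and the genes most like the mean profile; any other name was picked with its values known. A gene that this rule names is not reported here. Alternatives were another pseudocount (0.1), other filters, 3 other scalings, no variance trend, blocks, and leaving out each library.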

Additional observations from a re-analysis of the deposited data

How the results depend on the processing

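In every alternative, 0 of the 9 transporters passed the fold change of 1.5 with P under 0.05, except that a minimum mean of 5 FPKM left 8 to test, of which 0 passed. Their median log2 fold change was −0.12 under the replicate block, −0.034 under the common total, −0.038 with that minimum and −0.0013 under the set block. The number with an unadjusted p under 0.05 was 0 without the variance trend, 3 under the replicate block, 3 under the set block and 0 to 2 when each library was left out in turn. The replicate block, from numbers in the titles that are not known to pair animals (r of deviations 0.402 and 0.269), had *Slc2a1*, *Slco1c1* and *Abcb1a* under 0.05, where 11.2% of all tested genes were. Replicate 3 exists only in cKO, so this block gave cKO 3 no weight. Its fold changes equal those without cKO 3, so these alternatives are not separate. All tested genes past the threshold numbered 84, but 142 with a pseudocount of 0.1, 43 with a minimum mean of 5 FPKM, 133 with the replicate block and 92 to 234 when each library was left out. Rescaling to a common total gave 124, of which 41.1% were higher in place of 60.7%.

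*Slc2a1*, *Slc3a2* and *Abcb1a* stayed lower (*Abcb1a* by −0.32 to −0.034 when each library was left out), and *Mfsd2a* and *Slco1c1* stayed higher in cKO under each alternative. The other 4 transporters turned in some. Under the common total, where the median of all genes was −0.047, *Slc7a5* was at −0.034, *Slco1a4* at −0.0045 and *Slc22a8* at −0.017. Under the replicate block they were at −0.12, −0.095 and −0.19, and the difference of *Slc7a5* and *Slc3a2* was −0.017. These are the same values as without cKO 3, which that block leaves without weight. With the set block *Slco1a4* was at −0.0013. Leaving out 1 library moved *Slc7a5* from −0.12 to 0.19, *Slco1a4* from −0.095 to 0.22, *Slc22a8* from −0.19 to 0.17, *Abcg2* from −0.27 to 0.054, and the difference of *Slc7a5* and *Slc3a2* from −0.017 to 0.30. Where a control is left out, the lone control is assumed to vary like the cKO libraries. The cause of these turns was not tested. By the rough estimate of 5070000 to 6690000 fragments per library, *Slc22a8* had the fewest fragments of the transporters.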

Other observations

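The mean profile of the 9 transporters over the 5 libraries, as centred log2(FPKM + 1), was compared with 9183 other genes of at least 5 FPKM. The nearest were *Tmub2*, *D17H6S53E* and *Mas1*, with root mean square distances of 0.019, 0.029 and 0.029. *Tmub2* had 26.7 and 28.8 FPKM in control and 25.6, 26.2 and 32.1 FPKM in cKO tissue, highest in cKO 3 and control 2. With 5 libraries this likeness is a description.

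Haemoglobin transcripts, which mark blood left in the vessels, gave mixed values. *Hbb-b1*, chosen after its values were seen, had 47.8 and 23.8 FPKM in control tissue and 31.9, 37.5 and 27.9 FPKM in cKO, highest in control 1. *Hba-a2* was the 1 red cell gene past the threshold, beside 0.659% of all tested genes. It had 0.653 and 32.1 FPKM in control and 38.5, 42.5 and 28.2 FPKM in cKO tissue (2.32 on the log2 scale, limma adjusted p = 0.955). Its difference was 4.58 in set 1 and 0.11 in set 2. *Hba-a1* had 53.5 and 3.48 FPKM in control and 0.0487, 13.7 and 0.391 FPKM in cKO tissue. The sum of both genes was 54.2 and 35.5 FPKM in control and 38.6, 56.2 and 28.6 FPKM in cKO tissue, so the groups overlapped. Control 1 held mostly *Hba-a1* and every other library mostly *Hba-a2*. The call of *Hba-a2* thus follows how this sum was divided in control 1 and is not seen in the sum. How reads were divided between these genes was not tested.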
